A study of Mus musculus with 12 samples.

Results

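The genes described here are 38 genes of the cell cycle and of DNA replication, followed in the retinal pigment epithelium (RPE), the pigmented monolayer that supports the photoreceptors. They were chosen by symbol, as listed genes whose mean over 12 RNA-sequencing libraries reached 1 normalized count, and all 38 reached that level among the 28591 genes of the table. The libraries come from the RPE of 6 wild-type C57BL/6J mice (WT) and 6 mice homozygous for the *rd6* mutation of *Mfrp* (rd6), all 1 mo of age. *Mfrp* encodes the membrane frizzled-related protein of the RPE surface. The mutation is carried in the germ line, so every tissue of the rd6 mice has it. RPE of both eyes of an animal was combined, and the labels give no genetic background for the rd6 mice. A normalized count is the number of reads counted for a gene divided by the size factor of its library.

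The cell cycle is driven by cyclins and the cyclin-dependent kinases (CDKs) they activate. D cyclins act with CDK4 and CDK6 in G1, where they phosphorylate the retinoblastoma protein and so free E2F factors, which switch on cyclin E and the replication genes. CDK inhibitors hold these kinases back. In S phase the MCM helicase opens the DNA and the PCNA clamp holds the polymerases on it, and genes for mitosis are then transcribed from G2 on. The RPE of the adult mouse is known as a tissue that hardly divides.

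The libraries held 28907262 to 33152725 counted reads, so that 3 reads correspond to about 3 normalized counts. The mutated gene, *Mfrp*, had 40022 ± 5488 normalized counts in WT against 25881 ± 3091 in rd6 (mean ± SD, n = 6 each), lower in every rd6 library. The 15 RPE marker genes were all present, with a summed level of 1121832 to 1585114 normalized counts in WT against 816360 to 1115436 in rd6. 1 WT library, replicate 4, stood apart from the other 5 in many of the genes below, and fold changes that move by over 1.5 times or turn without it are given both ways.

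Of the 37 genes that entered the test, those with a mean of 10 or more, *Ccnd2* was higher and *Ccnd1* lower in rd6 (limma on log2(normalized count + 1), Benjamini-Hochberg adjusted p, here q, below 0.05 over 17768 genes). Over all genes tested 11.4% were higher and 11.6% lower, so the 1 gene in each direction is a smaller share than in the whole transcriptome. Another 3 of the 37 genes had an unadjusted p below 0.05, which makes 5 in all. The median log2 fold change of the 37 genes was 0.08, against 0.00 over all genes tested. Without WT replicate 4 it was 0.34, against 0.01 over all genes tested, and 5 genes were higher and 2 lower, where 13.7% and 12.9% of all genes were. The remaining gene, *Bub1*, a kinase of the spindle checkpoint, lay below the level needed for the test, with 0 to 46.6 normalized counts in WT and 0 to 18.4 in rd6.

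**Figure D1:**
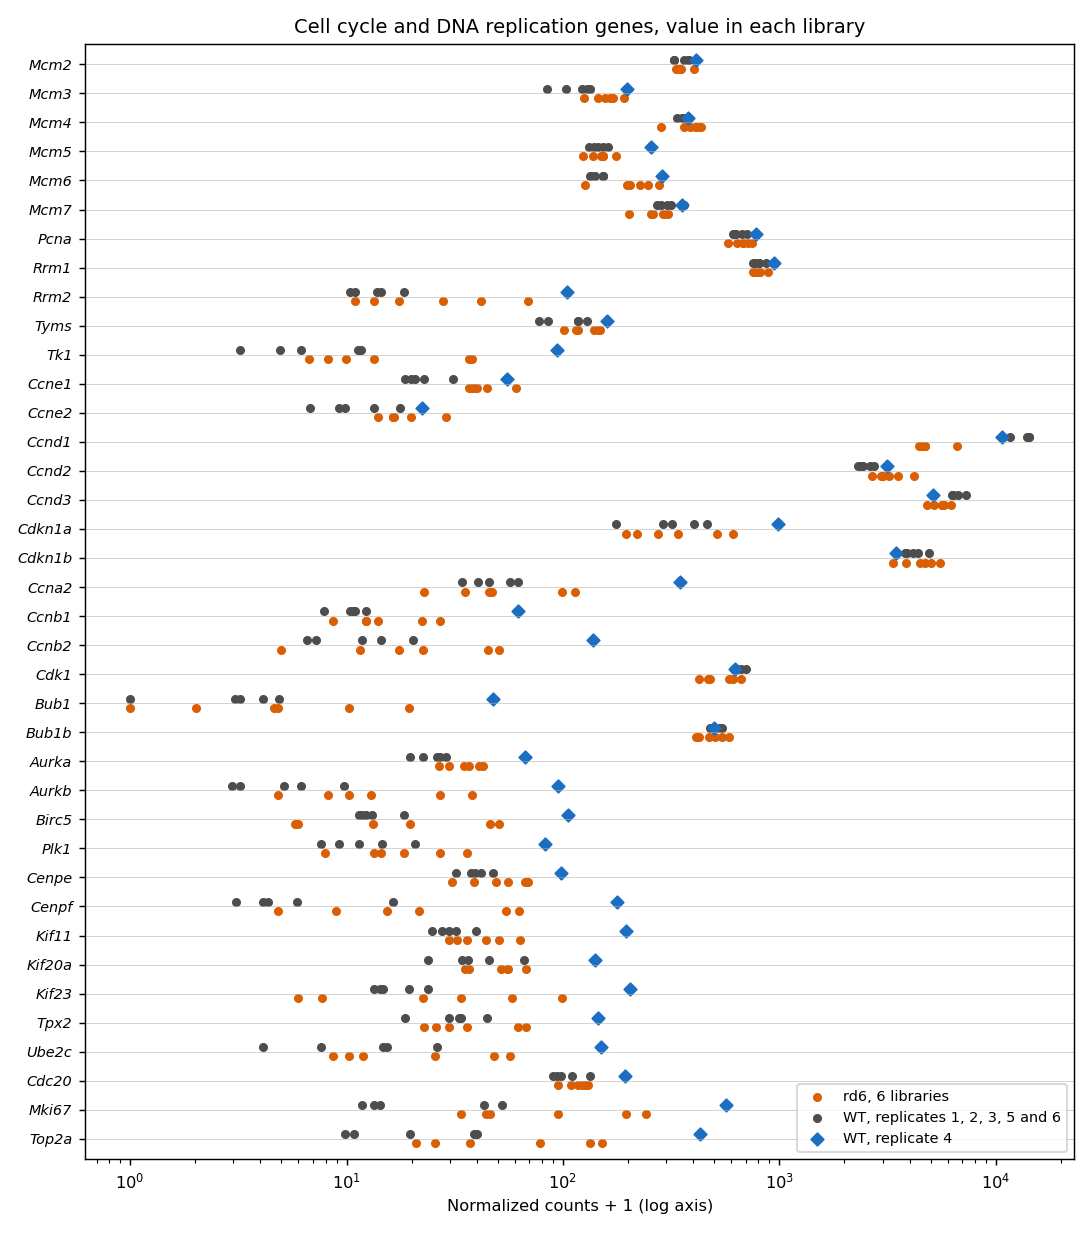
Normalized counts plus 1 (log axis) of the 38 genes in each library, with rd6 in orange, WT in grey and WT replicate 4 as a blue diamond. WT replicate 4 is the highest of the 12 libraries for 28 genes, while *Ccnd1* is the gene whose WT and rd6 libraries do not overlap.

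Promoters of 6 mitotic genes that hold short elements known from this class are shown first. Of these genes *Mki67*, *Top2a* and *Kif11* varied widely among the libraries, *Cdc20* varied less, and *Cdk1* and *Bub1b* varied little. Not every varying gene has such elements: no CHR, the element defined next, was found for *Cenpf*, *Bub1*, *Aurka*, *Cenpe*, *Plk1*, *Kif23*, *Birc5* and *Ccnb1*. Many genes of G2 and mitosis are known to hold a cell cycle homology region (CHR, TTTGAA or TTCGAA) and CCAAT boxes, which bind the DREAM and MYB-MuvB complexes and NF-Y. The sequences are the 150 bases before the start site in RefSeq, in build GRCm38.p6, written 5′ to 3′ on the gene's strand, and capitals mark CHR and CCAAT letters on either strand.
Mki67 promoter, chr7:135716380-135716529, minus strand: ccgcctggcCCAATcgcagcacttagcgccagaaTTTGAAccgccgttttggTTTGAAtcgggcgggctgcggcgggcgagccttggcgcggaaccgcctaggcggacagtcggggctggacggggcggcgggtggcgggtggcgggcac
Top2a promoter, chr11:99024190-99024339, minus strand: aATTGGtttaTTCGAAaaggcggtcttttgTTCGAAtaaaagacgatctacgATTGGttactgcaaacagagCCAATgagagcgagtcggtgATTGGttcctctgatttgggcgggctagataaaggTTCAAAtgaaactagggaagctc
Cdc20 promoter, chr4:118437344-118437493, minus strand: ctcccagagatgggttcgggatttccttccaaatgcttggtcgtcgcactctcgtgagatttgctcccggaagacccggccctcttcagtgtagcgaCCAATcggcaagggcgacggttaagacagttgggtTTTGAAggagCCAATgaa
Kif11 promoter, chr19:37376232-37376381, plus strand: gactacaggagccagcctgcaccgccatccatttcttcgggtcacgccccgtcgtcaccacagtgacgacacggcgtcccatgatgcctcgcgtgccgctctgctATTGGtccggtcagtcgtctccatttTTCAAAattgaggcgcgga
Cdk1 promoter, chr10:69352913-69353062, minus strand: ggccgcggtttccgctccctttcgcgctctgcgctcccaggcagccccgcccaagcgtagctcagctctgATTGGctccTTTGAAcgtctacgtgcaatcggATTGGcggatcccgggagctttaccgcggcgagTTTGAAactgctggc
Bub1b promoter, chr2:118598061-118598210, plus strand: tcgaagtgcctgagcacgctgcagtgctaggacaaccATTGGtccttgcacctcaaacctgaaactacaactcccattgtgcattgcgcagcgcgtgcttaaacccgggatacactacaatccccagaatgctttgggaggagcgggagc

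Promoter sequence was on hand for 16 of the 20 mitotic genes. In the 250 bases before the start, 8 of these 16 promoters (50%) held a CHR, against 17.1% of all 32851 promoters, and 15 (93.8%) held CCAAT, against 33.8%. Both were in 8 (50%), against 6.02% of all promoters. The letters TTCCCGC or TTGGCGC, 2 forms of the E2F element, were in 3 of the 16 (18.8%) and in 5 of 12 promoters (41.7%) of the replication and cyclin E genes, against 5.62% of all promoters. All motifs were searched on both strands and could share bases, and a match is a description of the letters. *Cdk1* and *Bub1b* held both CHR and CCAAT, as *Mki67*, *Top2a*, *Cdc20* and *Kif11* did; for *Bub1b* the CHR lies at the edge of the stretch shown and is not in capitals.

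*Ccnd1*, which encodes cyclin D1, was the gene of the set with the clearest difference. WT replicates 1 to 6 gave 14022, 14228, 11691, 10693, 14314 and 13978 normalized counts, and rd6 replicates 1 to 6 gave 4400, 4714, 4557, 4720, 4564 and 6613. The lowest WT library was above the highest rd6 library, and 5 of the 6 rd6 libraries lay close together. The mean was 13154 ± 1557 in WT and 4928 ± 834 in rd6 (SD, n = 6 each), and *Ccnd1* fell by 1.42 on the log2 scale (SE 0.11, q = 1.33e-06 by limma), and by 1.48 without WT replicate 4. An exact two-sided permutation test over the libraries gave p = 0.00216, the smallest that 6 against 6 libraries allow. Among all genes tested 5.67% had every rd6 library below every WT library.

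**Figure D2:**
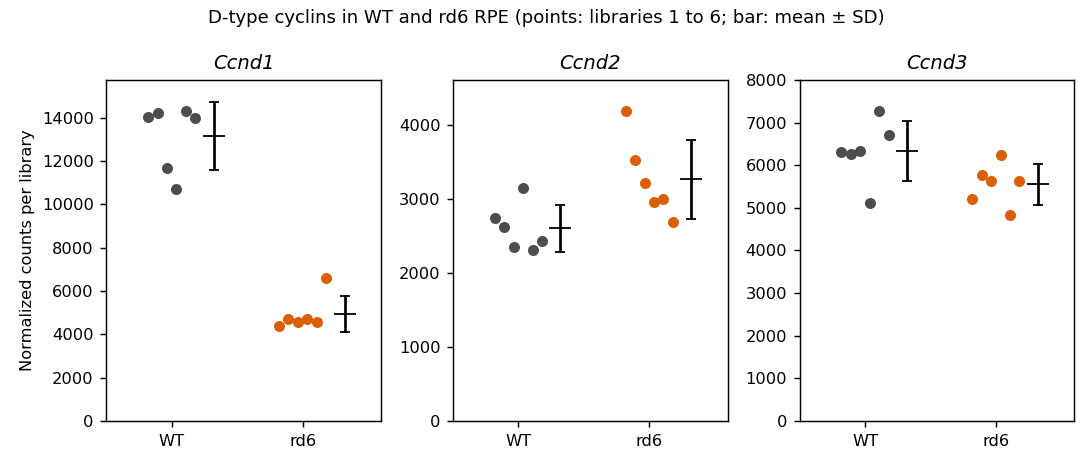
Normalized counts of the D cyclins in each WT (grey) and rd6 (orange) library, with mean ± SD as bars, on axes that start at 0. *Ccnd1* falls from 13154 to 4928 with no overlap, *Ccnd2* shifts up and *Ccnd3* overlaps.

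Cyclin D1 was also the most abundant of the set per length. Per kilobase of annotated exon, *Ccnd1* had 2793 ± 331 normalized counts in WT, followed by *Cdkn1b* with 899 ± 111, *Ccnd3* with 722 ± 81.3, *Pcna* with 278 ± 27.0 and *Ccnd2* with 276 ± 33.2. *Pcna* and *Ccnd2* did not differ beyond their spread. In rd6 *Ccnd1* had 1047 per kilobase, near the 985 of *Cdkn1b*. *Ccnd1* lies on chr7:144929931-144939925 (mm10, minus strand) and shares exon bases with LTO1 on the other strand. Whether strand was used in counting is not stated, but LTO1 had 790 ± 56.3 normalized counts in WT against 714 ± 43.0 in rd6, a small fraction of the *Ccnd1* level (log2 fold change -0.14, q = 0.104 by limma).

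Neither of the other D cyclins was lower by the test with all libraries. *Ccnd2* had 2736, 2626, 2351, 3142, 2307 and 2437 normalized counts in the WT replicates and 4190, 3528, 3215, 2960, 3002 and 2692 in the rd6 replicates. Its groups overlapped, with WT replicate 4 above 3 rd6 libraries. It rose by 0.32 on the log2 scale (SE 0.11, q = 0.0431 by limma), a call close to the limit. The call was kept without WT replicate 4 (q = 0.0151) or rd6 replicate 4, 5 or 6, and lost without any of the other 8 libraries, with q up to 0.0906. *Ccnd3* had 6332 ± 713 normalized counts in WT against 5549 ± 483 in rd6 (log2 fold change -0.19, SE 0.08, q = 0.122 by limma), and passed the limit without WT replicate 4 (-0.25, q = 0.0168). Both genes share exon bases with genes on the other strand, *Ccnd3* with *Bysl* and *Ccnd2* with antisense transcripts.

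Together the D cyclins had 22086 ± 1960 normalized counts in WT against 13742 ± 834 in rd6. *Ccnd1* supplied 59.4% ± 2.03 of these in WT and 35.8% ± 4.45 in rd6. The share of *Ccnd3* was 28.7% ± 1.81 in WT and 40.4% ± 2.79 in rd6, and *Ccnd3* exceeded *Ccnd1* in 5 of the 6 rd6 libraries, all but replicate 6, and in none of the 6 WT libraries. The share of *Ccnd2* was 11.9% ± 2.42 in WT and 23.8% ± 4.13 in rd6. These counts are not scaled by length. Per kilobase of exon in rd6 the order of the 2 genes was the reverse, with 1047 ± 177 for *Ccnd1* and 632 ± 55.0 for *Ccnd3*. Marker genes of RPE and of other cells also moved with the genotype, where 11.4% of all genes were higher and 11.6% lower. Of 15 RPE markers 6 were lower and 1 higher (median log2 fold change -0.34). Without WT replicate 4, 10 RPE markers were lower and 2 higher, where 12.9% and 13.7% of all genes were. Of 16 markers of microglia or macrophages 15 were higher (median log2 fold change 2.66, summed 17024 to 22761 in WT and 29718 to 47504 in rd6, in WT mostly from *Csf1r*, the marker not called). Of 12 endothelial markers 9 were higher (median 0.85, summed 7427 to 14283 in WT and 12526 to 28137 in rd6). Of 13 rod photoreceptor markers 4 were lower and all 13 had a log2 fold change below 0 (median -0.97, summed 35026 to 76295 in WT and 18393 to 67089 in rd6), and of 6 markers of choroidal fibroblasts 1 was lower (median -0.39). In bulk RNA, fewer cells of a type and less RNA per cell cannot be told apart, and the part of these changes in the cyclin values was not tested.

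The CDK inhibitors did not pass the test. *Cdkn1b*, which encodes p27, had 4093 ± 504 normalized counts in WT against 4481 ± 779 in rd6 (log2 fold change 0.12, SE 0.12, q = 0.494 by limma, and 0.07 without WT replicate 4), and its lowest library was rd6 replicate 5, with 3361. *Cdkn1a*, which encodes p21 and is a target of p53, had 176 to 984 normalized counts in WT against 194 to 610 in rd6 (-0.21, SE 0.38, q = 0.732, and 0.07 without WT replicate 4). The highest were WT replicate 4, then rd6 replicate 5 and rd6 replicate 1 with 512. Of 4 other CDK inhibitor genes tested none was called (0 of 4 with q below 0.05 by limma), where 11.4% of all genes were higher and 11.6% lower. *Cdkn2a*, the fifth of that list, lay below the level needed for the test, with 0 to 2.91 normalized counts in WT and 1.91 to 8.13 in rd6, so that every WT library was at or under about 3 reads. With the lower limit of 1 on the mean it was called higher (q = 0.0271 by limma).

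Cyclin E activates CDK2 at the entry into S phase. *Ccne1* had 21.7, 17.6, 19.7, 54.4, 18.8 and 29.97 normalized counts in the WT replicates and 36.8, 38.1, 35.9, 39.2, 59.6 and 43.7 in the rd6 replicates. Every rd6 library lay above 5 of the 6 WT libraries, and WT replicate 4 lay above all rd6 libraries but replicate 5. With all libraries *Ccne1* did not pass the limit (log2 fold change 0.72, SE 0.26, q = 0.0652 by limma), and without WT replicate 4 it did (0.94, SE 0.19, q = 0.00373). *Ccne2* had 12.3 ± 5.88 normalized counts in WT against 17.7 ± 5.28 in rd6 (0.57, SE 0.31, q = 0.205), and shares exon bases with *Ints8* on the other strand.

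None of the replication genes passed the test with all libraries. The 6 MCM helicase genes had a median log2 fold change of 0.01, and 0.04 without WT replicate 4. With all libraries none was called (0 of 6 with q below 0.05 by limma), where 11.4% of all genes were higher and 11.6% lower. *Mcm2* had 363 ± 34.4 normalized counts in WT against 352 ± 25.0 in rd6 (-0.04, SE 0.08, and -0.01 without WT replicate 4), and *Mcm4* had 364 ± 17.6 and 382 ± 54.2 (0.05, SE 0.10). *Mcm5* had 163 ± 45.3 and 148 ± 17.1 (-0.11, SE 0.15, and 0.02 without WT replicate 4), with WT replicate 4 at 254 and the other WT libraries at 131 to 161. *Mcm7* had 314 ± 37.4 and 267 ± 38.0 (-0.24, SE 0.11, q = 0.146), and overlaps *Cops6* and *Ap4m1* on the other strand, so its value is uncertain.

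*Mcm3* and *Mcm6* were the helicase genes with the widest range. *Mcm6* had 152, 132, 151, 287, 134 and 139 normalized counts in the WT replicates and 278, 227, 196, 126, 246 and 204 in the rd6 replicates, so that 5 of 6 rd6 libraries lay above 5 of 6 WT libraries. It did not pass the limit with all libraries (log2 fold change 0.38, SE 0.22, q = 0.237 by limma) and did without WT replicate 4 (0.54, SE 0.17, q = 0.0327). *Mcm3* gave 0.34 (SE 0.18, q = 0.191) and, without WT replicate 4, 0.48 (SE 0.14, q = 0.0284 by limma). The remaining 4 helicase genes were not called without that library either, in a fit where 13.7% of all genes were higher and 12.9% lower.

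*Pcna*, the sliding clamp, had 668 ± 64.7 normalized counts in WT against 671 ± 59.7 in rd6 (log2 fold change 0.01, SE 0.08, and 0.05 without WT replicate 4). Ribonucleotide reductase makes deoxynucleotides from a large subunit, *Rrm1*, and a small one, *Rrm2*, and the genes differed in their steadiness. *Rrm1* had 758 to 941 normalized counts in WT against 754 to 886 in rd6, so its highest library was 1.25 times its lowest. *Rrm2* had 9.34 to 104 in WT and 9.94 to 67.8 in rd6, 11.1 times from lowest to highest, and its top libraries were WT replicate 4, rd6 replicate 1 and rd6 replicate 5. *Tk1*, the thymidine kinase of S phase, had its highest values in the same 3 libraries, with 93.2, 35.9 and 37.0, and 2.21 to 12.4 elsewhere. It overlaps *Afmid* on the other strand. The log2 fold changes of *Rrm2* and *Tk1* were 0.37 and 0.51, and 0.87 and 1.15 without WT replicate 4, none of them called, and *Tk1* was below 0 in the count models. *Tyms*, thymidylate synthase, had 114 ± 30.2 and 127 ± 19.1 (0.19, SE 0.18, q = 0.481 by limma, and 0.29 without WT replicate 4).

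Mitotic genes varied widely among the animals of a genotype. *Mki67*, which encodes the proliferation marker Ki-67, gave 10.9, 42.3, 12.5, 567, 13.3 and 51.2 normalized counts over WT replicates 1 to 6, and 240, 93.8, 45.2, 43.0, 195 and 32.8 over rd6 replicates 1 to 6. WT replicate 4 was the highest of all libraries and WT replicates 1, 3 and 5 were the lowest, and the other 8 libraries lay between them. Its log2 fold change was 1.12 (SE 0.88, q = 0.396 by limma), and 1.90 without WT replicate 4 (SE 0.60, q = 0.0339). Because its means were 116 in WT and 108 in rd6, the count models gave -0.09 with edgeR and -0.10 with DESeq2, the opposite sign. *Top2a*, the topoisomerase of condensing chromosomes, followed the same libraries, with 428 in WT replicate 4, 150 in rd6 replicate 1 and 132 in rd6 replicate 5, and 8.86 to 77.3 elsewhere. Its log2 fold change was 0.75 (SE 0.85, q = 0.567 by limma), and 1.48 without WT replicate 4 (SE 0.59, q = 0.0846). The count models again had the opposite sign, -0.29 with edgeR and -0.30 with DESeq2.

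The pattern ran through the set. WT replicate 4 was the highest of the 12 libraries in 28 of the 38 genes, against 14.2% of all genes tested, and in 18 of the 20 mitotic genes. The 3 highest libraries were WT replicate 4, rd6 replicate 1 and rd6 replicate 5 in 19 of the 38 genes and in 15 of the 20 mitotic genes, against 7.56% of all genes. The median within-genotype SD on the log2 scale was 1.22 in WT and 0.77 in rd6 for the 19 mitotic genes tested, and 0.19 and 0.18 for all genes. Without WT replicate 4 it was 0.35 in WT, against 0.17 for all genes. For the 13 replication and cyclin E genes it was 0.39 in WT and 0.22 in rd6. The genes share the libraries, so they are no independent counts of this pattern.

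**Figure D3:**
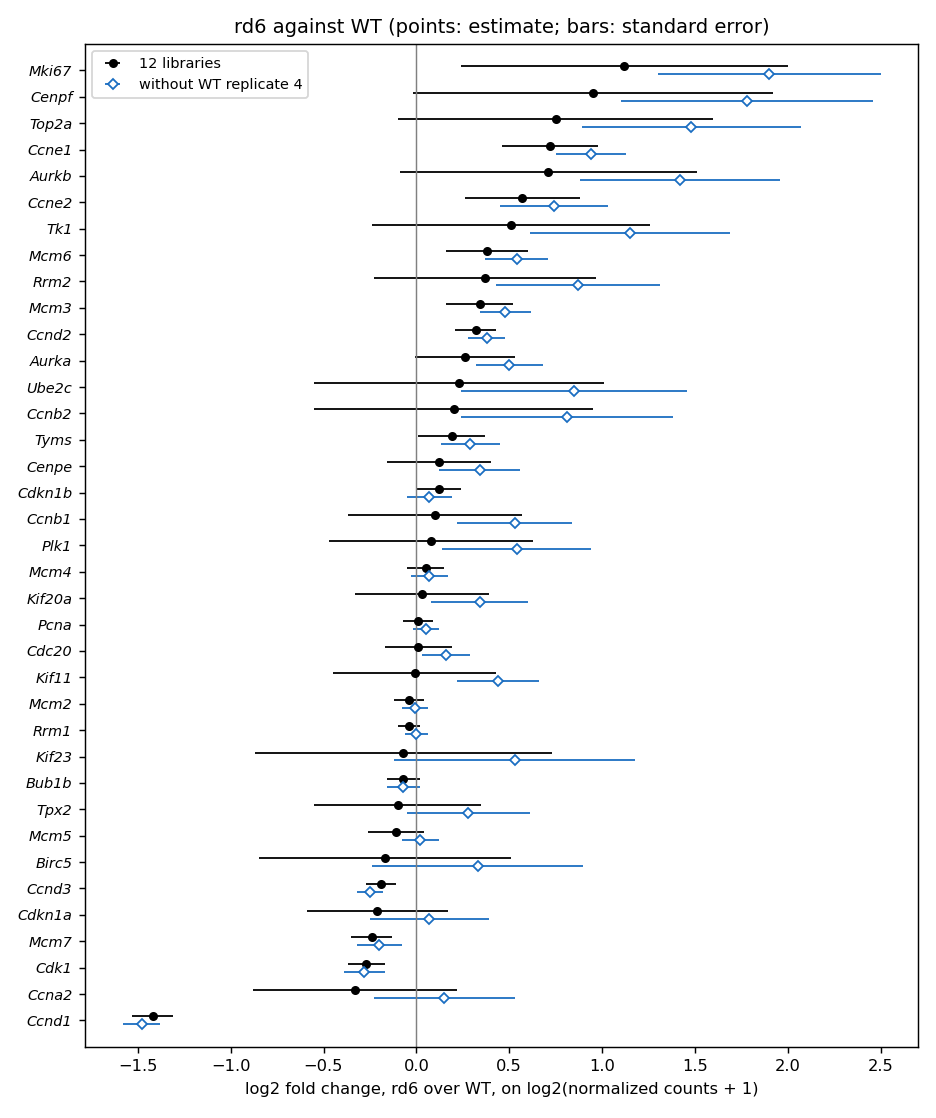
Log2 fold change of rd6 over WT with its standard error for the 37 genes tested, from all 12 libraries (black) and without WT replicate 4 (blue). *Ccnd1* stays near -1.42, while most mitotic genes move to the right without that library, *Mki67* from 1.12 to 1.90.

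*Cdk1* did not follow its cyclins in this pattern. *Ccna2* (cyclin A2) had 345 normalized counts in WT replicate 4, 112 in rd6 replicate 1 and 97.5 in rd6 replicate 5, and 21.9 to 60.9 in the other 9 libraries. It shares exon bases with the more abundant *Exosc9* on the other strand, at 541 ± 32.7 and 611 ± 36.9, so its baseline is uncertain. *Ccnb1* had 61.2 in WT replicate 4 and 6.90 to 26.2 elsewhere, and *Ccnb2* had 136 there and 3.98 to 49.4 elsewhere. Their log2 fold changes were -0.33, 0.10 and 0.20, with SE of 0.55, 0.47 and 0.75, and without WT replicate 4 they were 0.15, 0.53 and 0.81. *Ccnb1* and *Ccnb2* were below 0 in the count models. *Cdk1*, the kinase they activate, had 617, 635, 619, 621, 699 and 664 in WT and 478, 584, 612, 662, 423 and 469 in rd6. WT replicate 4 was not set apart for *Cdk1*, and rd6 replicates 1 and 5 were among its lowest libraries. Its log2 fold change was -0.27 (SE 0.10, q = 0.0737 by limma), short of the limit, and -0.34 without rd6 replicate 4 (q = 0.0246), which passed it. Per kilobase of exon in WT, *Cdk1* had 130 ± 6.62 and *Ccnb1* had 4.29 ± 5.02 normalized counts.

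The spindle checkpoint kinases repeated the contrast. *Bub1b*, which encodes BubR1, had 510 ± 28.3 normalized counts in WT against 491 ± 67.5 in rd6 (log2 fold change -0.07, SE 0.09, q = 0.624 by limma), with WT replicate 4 at 500. *Bub1* had 46.6 in WT replicate 4, 18.4 in rd6 replicate 1 and 9.28 in rd6 replicate 2, and 0 to 3.87 elsewhere. Tested with a lower limit of 1 on the mean, *Bub1* gave -0.01 (q = 0.995). Per kilobase of exon in WT, *Bub1b* had 119 ± 6.62 and *Bub1* 2.22 ± 4.17. *Cdk1* and *Bub1b* were the only mitotic genes of the set whose highest library was less than 2 times the lowest, and both carry the promoter elements described above. Across the 38 genes that held for 10, the others being *Rrm1*, *Mcm2*, *Mcm4*, *Mcm7*, *Pcna*, *Ccnd2*, *Ccnd3* and *Cdkn1b*.

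The Aurora and Polo kinases, which build the spindle, varied with the other mitotic genes. *Aurka* had 18.7 to 66.0 normalized counts in WT against 25.7 to 41.7 in rd6 (log2 fold change 0.26, SE 0.27, q = 0.528 by limma, and 0.50, q = 0.0632 without WT replicate 4). *Aurkb*, of the chromosomal passenger complex, had 94.2 in WT replicate 4, 36.8 in rd6 replicate 1 and 26.2 in rd6 replicate 5, and 1.97 to 11.9 elsewhere. *Birc5*, which encodes survivin of the same complex, had 105, 49.4 and 45.2 in those libraries and 4.77 to 18.6 elsewhere. *Plk1* had 81.6, 34.9 and 26.2, and 6.64 to 19.7 elsewhere. The log2 fold changes of *Aurkb*, *Birc5* and *Plk1* were 0.71, -0.17 and 0.08, and 1.42, 0.33 and 0.54 without WT replicate 4. None of these passed the limit either way, and *Aurkb* and *Plk1* changed sign between limma and the count models.

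The motor and kinetochore genes were highest in WT replicate 4 for all 6 of 6. *Cenpf* had the widest range, with 178 normalized counts in WT replicate 4, 61.4 in rd6 replicate 5 and 53.3 in rd6 replicate 1, and 2.07 to 20.6 elsewhere, at least 57.1 times from lowest to highest. *Kif23*, a motor of the central spindle, had 203 in WT replicate 4, 97.9 in rd6 replicate 1 and 56.9 in rd6 replicate 5, and 4.97 to 33.0 elsewhere. *Kif11*, the motor that parts the spindle poles, had 195 in WT replicate 4 and 23.9 to 62.0 elsewhere. *Tpx2* had 145 and 17.6 to 66.8, and *Kif20a* had 140 and 22.7 to 66.9. *Cenpe* varied least, with 97.1 and 29.6 to 67.7. The log2 fold changes were 0.95 for *Cenpf*, 0.12 for *Cenpe* and -0.10 to 0.03 for the 4 others, and without WT replicate 4 they were 1.78, 0.34 and 0.28 to 0.53, none called. For *Cenpf*, with means of 34.4 in WT and 26.9 in rd6, the count models gave -0.34 with edgeR and -0.36 with DESeq2, and for *Kif20a* -0.20 with both. *Kif20a* overlaps *Cdc23* on the other strand and is uncertain.

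The anaphase-promoting complex is a ubiquitin ligase that *Cdc20* activates and *Ube2c* serves. *Ube2c* had 149 normalized counts in WT replicate 4, 56.2 in rd6 replicate 1 and 47.0 in rd6 replicate 5, and 3.11 to 25.1 elsewhere. *Cdc20* had 193 in WT replicate 4 and 88.8 to 132 elsewhere, a narrower range. Their log2 fold changes were 0.23 and 0.01, and 0.85 and 0.16 without WT replicate 4, and both were below 0 in the count models. Both share exon bases with far more abundant genes on the other strand, *Ube2c* with *Tnnc2* and *Cdc20* with *Elovl1*, so their baseline is uncertain. Over the 19 mitotic genes tested the median log2 fold change was 0.08. None was called (0 with q below 0.05 by limma), where 11.4% of all genes were higher and 11.6% lower. Without WT replicate 4 the median was 0.50 and *Mki67* was called, where 13.7% of all genes were higher and 12.9% lower.

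Keratin genes of the ocular surface moved with the same libraries. The markers of ocular surface epithelium (*Krt5*, *Krt14*, *Krt15*, *Krt12*, *Krt13* and *Trp63*) summed to 342, 11886, 11.4, 182023, 323 and 4480 normalized counts over WT replicates 1 to 6, and to 57164, 18985, 3254, 533, 100907 and 832 over rd6 replicates 1 to 6. The 4 libraries with the highest sums were WT replicate 4 and rd6 replicates 5, 1 and 2, which are also the 4 highest for *Mki67*, and the 3 lowest sums, of WT replicates 3, 5 and 1, are its 3 lowest. *Krt5*, a keratin of basal cells, had 63798 in WT replicate 4 and 0 in WT replicate 3, and *Krt12*, a keratin of the cornea, had 69564 and 3.11. All 6 of 6 markers had WT replicate 4, rd6 replicate 1 and rd6 replicate 5 as their 3 highest libraries. None of the 6 was called between genotypes (0 of 6 with q below 0.05 by limma), where 11.4% of all genes were higher and 11.6% lower. In WT replicate 4 the summed markers of microglia or macrophages were the lowest of the 12 libraries, those of RPE the lowest of the WT libraries, and those of endothelium ninth. The microglial sum there was mostly *Csf1r*, at 12921 of 17024 normalized counts. Of the microglial markers only *Csf1r* and *Tmem119* were lowest in WT replicate 4. *Itgam* was higher there, at 308, than in the other WT libraries, at 6.22 to 52.6. The part of the keratin-bearing RNA in the mitotic values was not tested. Lymphocyte markers summed to 23.3 to 52.2 normalized counts in WT and 45.5 to 119 in rd6.

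**Figure D4:**
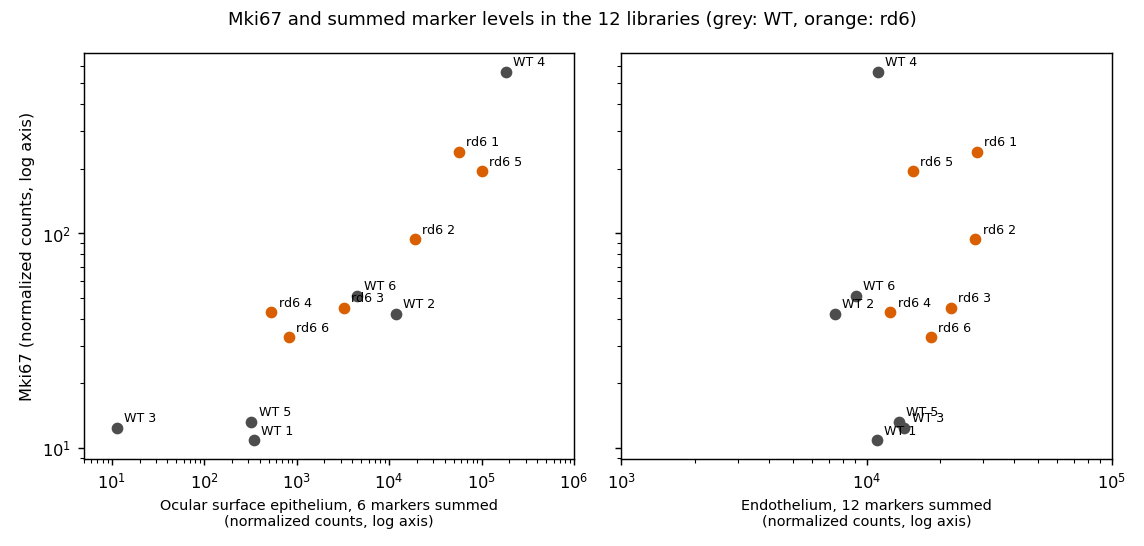
*Mki67* in each library against the summed markers of ocular surface epithelium (left) and of endothelium (right), in normalized counts on log axes, with WT in grey and rd6 in orange. WT replicate 4, with 567 *Mki67* counts, has the highest sum of surface epithelium markers, 182023, and the ninth highest sum of endothelial markers, 11103.

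Other genes of the same pathways were followed in lists of 140 genes, 131 of which were tested. Of these 13 were higher and 8 lower in rd6, against 11.4% and 11.6% of all genes, and without WT replicate 4 the counts were 24 and 8, against 13.7% and 12.9%. The number higher also fell, to 6 to 8, without WT replicate 2, 3 or 6 or rd6 replicate 2, 3 or 4. The median log2 fold change was 0.13, and 0.20 without WT replicate 4. Of the 21 genes called, 13 kept the call whichever of the 12 libraries was left out.

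The largest of these changes were in the E2F group. E2F factors bind DNA with a DP partner, E2F1 and E2F2 as activators, and E2F6 as a repressor that the pocket proteins do not bind. *E2f6* had 1339, 1379, 1377, 1274, 1467 and 1660 normalized counts in WT against 3997, 4576, 4126, 4537, 3810 and 4227 in rd6. The groups were far apart, and *E2f6* rose by 1.57 on the log2 scale (SE 0.07, q = 1.11e-08 by limma). *E2f2* had 19.7 to 30.6 in WT and 37.2 to 62.6 in rd6, and rose by 0.97 (SE 0.18, q = 0.00163). *E2f1* had 325 to 431 in WT and 150 to 237 in rd6, and fell by 0.95 (SE 0.12, q = 0.000161). *Tfdp2*, which encodes the DP2 partner, had 1498 to 2000 in WT and 1146 to 1455 in rd6, and fell by 0.39 (SE 0.07, q = 0.00225). None of these 4 genes overlapped between genotypes. They were picked as the called genes with the largest changes of their list, so the lack of overlap follows in part from that choice. Among all genes, picked or not, 5.77% had every rd6 library above and 5.67% below every WT library. In all, 3 of the 18 genes of G1 kinases, pocket proteins and E2F were higher and 3 lower, where 11.4% and 11.6% of all genes were.

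**Figure D5:**
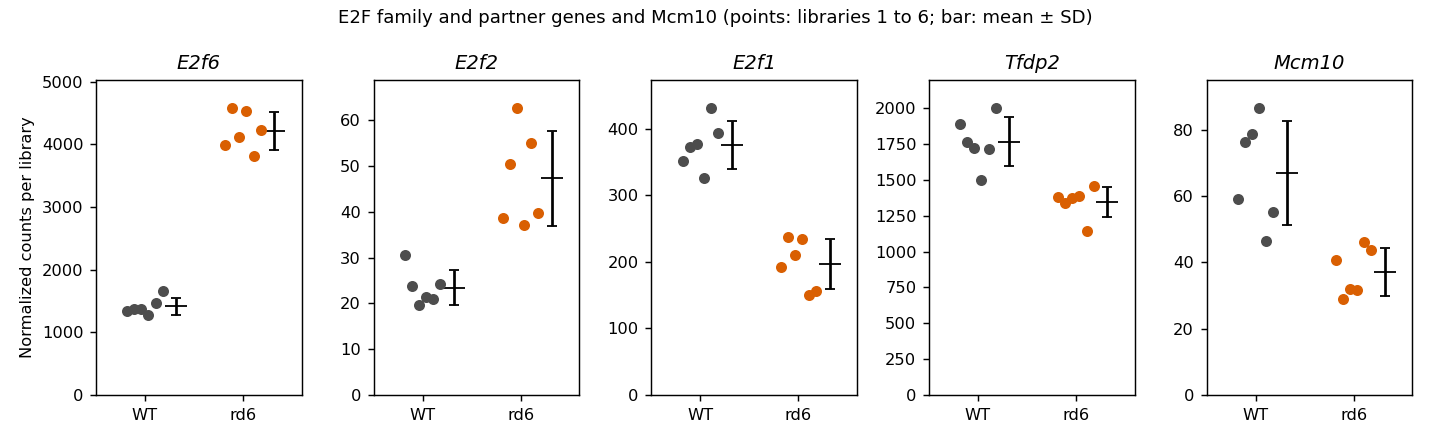
Normalized counts of *E2f6*, *E2f2*, *E2f1*, *Tfdp2* and *Mcm10* in each WT (grey) and rd6 (orange) library, with mean ± SD as bars, on axes that start at 0. The genotypes do not overlap in any of the 5 panels, with *E2f6* and *E2f2* higher and *E2f1*, *Tfdp2* and *Mcm10* lower in rd6.

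Among 16 genes of licensing and origin firing, *Mcm10* and *Cdc6* were lower and *Gins1* higher, where 11.6% and 11.4% of all genes were, and without WT replicate 4 there were 2 in each direction, where 13.7% of all genes were higher and 12.9% lower. *Mcm10*, needed to activate the loaded helicase, had 46.5 to 86.4 normalized counts in WT against 28.9 to 46.1 in rd6, and fell by 0.83 (SE 0.19, q = 0.00689 by limma). *Cdc6*, which loads the helicase, had 14.5 to 26.6 in WT and 6.68 to 18.4 in rd6, and fell by 0.85 (SE 0.25, q = 0.0253), a call lost without WT replicate 1 or 3 (q up to 0.0545). *Gins1*, of the active helicase complex, had 24.1 ± 5.57 and 34.2 ± 4.11 (0.50, SE 0.17, q = 0.0491), and of the fits that left out a library it kept its call only without WT replicate 4 or rd6 replicate 1 (q up to 0.105), and in 5 of 11 other alternatives.

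Of 27 replication fork genes 5 were higher and none lower in rd6 (0 lower with q below 0.05 by limma), where 11.4% and 11.6% of all genes were, and 8 were higher without WT replicate 4, where 13.7% were. The median log2 fold change was 0.16. *Pola2*, of the primase complex, had 92.9 ± 12.03 normalized counts in WT against 130 ± 17.2 in rd6, and rose by 0.48 (SE 0.12, q = 0.0115). *Rfc3*, of the clamp loader, rose by 0.35 (SE 0.12, q = 0.0494), and *Pold1*, a replicative polymerase, by 0.30 (SE 0.10, q = 0.0424). The calls of *Rfc3* and *Pold1* lay at the limit, and their log2 fold changes stayed at 0.30 to 0.41 and 0.25 to 0.38 whichever library was left out: of those fits, *Rfc3* kept its call only without WT replicate 1 or 4 (q up to 0.107), and *Pold1* only without WT replicate 4 or rd6 replicate 5 (up to 0.0834). Of 11 other alternatives *Rfc3* kept its call in 5 and *Pold1* in 6.

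Of 51 other mitotic genes 3 were higher and 1 lower, smaller shares than the 11.4% and 11.6% of all genes. *Cdc25a*, a phosphatase that activates CDKs, had 260 to 310 normalized counts in WT against 336 to 392 in rd6, without overlap, and rose by 0.33 (SE 0.07, q = 0.00323 by limma). *Cdc25b* rose by 0.63 (SE 0.19, q = 0.0273), lost without WT replicate 2, 3 or 6 or rd6 replicate 1, 2 or 5 (q up to 0.0613). *Espl1*, separase, rose by 0.45 (SE 0.13, q = 0.0283), lost without WT replicate 2, 3, 5 or 6 or rd6 replicate 2, 3 or 4 (q up to 0.0656). *Ect2*, which directs cytokinesis, had 85.9 ± 29.0 and 47.8 ± 7.32, and fell by 0.78 (SE 0.20, q = 0.0152). WT replicate 4 was the highest library in 45 of the 57 genes of this list, and 8 of 51 were called higher without it, where 13.7% of all genes were.

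Among 15 p53 target genes 1 was higher and 2 lower, where 11.4% and 11.6% of all genes were. Without WT replicate 4, 3 were higher and 2 lower, where 13.7% and 12.9% were. *Bax*, which promotes apoptosis, had 621 ± 65.1 normalized counts in WT against 728 ± 23.8 in rd6, and rose by 0.23 (SE 0.07, q = 0.0265 by limma), lost without WT replicate 1 or 3 or rd6 replicate 2, 3 or 6 (q up to 0.055). *Mdm2*, the ligase that degrades p53, had 1131 ± 73.0 and 960 ± 63.3, and fell by 0.24 (SE 0.06, q = 0.0112). *Trp53inp1* fell by 0.47 (SE 0.12, q = 0.0162). *Cdkn1a* belongs to the same targets and was not called.

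Histone genes, taken by the start of their symbol, had calls in 1 direction. Most are known as replication-dependent, with transcripts made in S phase, but the choice by symbol can also take in others. Of the 68 genes taken 43 were tested, of which none was higher and 19 were lower (limma, q below 0.05), where 11.4% of all genes were higher and 11.6% lower. Their median log2 fold change was -0.55, and 39 of 43 lay below 0. The summed counts of the list overlapped, at 20016 to 27321 in WT and 17653 to 25564 in rd6. Near-identical copies in this family can share reads, which was not tested here, so single genes were not read. WT replicate 4 was the highest library in only 2 of the 68.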

How the data were processed

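RPE of both eyes of each mouse was combined, and stranded libraries of total RNA were sequenced from both ends. Alignment to mm10 and counting were done by the authors with Rsubread with standard parameters, and normalization with DESeq2, in versions not given in the sources used here. The signal deposited for a gene is its number of reads over the size factor of its library. The deposited table also holds their DESeq2 mean, log2 fold change, standard error, statistic and p-values, which were not used. All values came out as whole reads (within 0.001), giving 28907262 to 33152725 reads a library. Of 28596 entries, 5 repeats were dropped.

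The main test was limma 3.58.1 (lmFit, eBayes with a trend, R 4.3.3) on log2(value + 1), with genotype as the only term, over 17768 genes whose mean reached 10. A gene was called at q below 0.05. Fold changes on this scale understate those of low genes. The script was tested on simulated data. The alternatives were other pseudocounts, filters and scalings, edgeR 4.0.16 and DESeq2 1.42.0 on the recovered reads, a replicate block, and leaving out each library. Floors of 3 reads cover counting error only. Exon lengths and overlaps are from GENCODE M21, which matched 28545 genes. Promoters are from RefSeq (GRCm38.p6), 33 for the set, of which 30 matched an annotated transcript start. The genes and lists were chosen with earlier results of these data known. All genes of the set were named, and of each other list up to 4 called genes by size of change, while histone genes were only counted. 1 such gene is not reported here.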

Additional observations from a re-analysis of the deposited data

Results flagged for a closer look

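Each of the 56 genes named by the rules above was looked at in the 6 libraries of each genotype for a library that lies far from the others (Dixon's ratio of gap to range, past its critical value for 6 values). Of the 112 groups 29 held such a library, where chance marks about 1 in 20 groups of normally distributed values. The ratio was taken on normalized counts without a log, so 1 in 20 is only a rough guide. In 26 of the 29 groups the library was WT replicate 4, the highest of the WT libraries. Its normalized counts were *Mcm5* 253.5, *Mcm6* 286.5, *Rrm2* 103.9, *Tk1* 93.23, *Ccne1* 54.39, *Cdkn1a* 983.8, *Ccna2* 344.8, *Ccnb1* 61.19, *Ccnb2* 136.0, *Bub1* 46.62, *Aurka* 66.04, *Aurkb* 94.21, *Birc5* 104.9, *Plk1* 81.58, *Cenpe* 97.12, *Cenpf* 177.7, *Kif11* 195.2, *Kif20a* 139.9, *Kif23* 203.0, *Tpx2* 144.7, *Ube2c* 148.6, *Mki67* 567.2, *Top2a* 428.3, *Gins1* 34.96, *Pold1* 246.7 and *Cdc25b* 261.3. The genes share this library, so these are not separate events.

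In rd6 a single library lay apart for 3 genes. Replicate 6 had the highest *Ccnd1* value, 6613.4 normalized counts, still below all WT libraries. Replicate 4 had the highest *Mcm2* value, 401.0, and replicate 5 the highest *Ccne1* value, 59.59.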

How the results depend on the processing

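The fall of *Ccnd1* kept its direction and call in all 23 alternatives, and the count of all genes called stayed within 1.5 times of 2024 higher and 2062 lower. The number of higher genes of the set was 0 with no filter, 0 with the replicate block and 0 to 5 when single libraries were left out, and the number of lower genes was 1 to 2 then, with 5 and 2 without WT replicate 4 and 2 lower, the added gene being *Cdk1*, without rd6 replicate 4. In the other lists, 6 to 24 genes were higher and 7 to 10 lower when single libraries were left out, against 13 and 8. The calls of *Gins1*, *Rfc3* and *Pold1* were also lost with a mean of at least 1, with no filter and with edgeR under RLE scaling, those of *Rfc3* and *Pold1* with edgeR under TMM, that of *Gins1* with DESeq2 and a pseudocount of 0.1, and that of *Rfc3* with a pseudocount of 10.

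Libraries share only a number between genotypes. Deviations of same-numbered libraries correlated at -0.743 to 0.315, and 0 of the 12 correlated best with their own number. With the replicate block 6 genes of the other lists were higher and 4 lower, 2 of the fork genes were higher, and 10 histone genes were lower, against 5 and 19 without it. *Ccnd2* was not called (q = 0.0522 by limma), nor were *Mcm10* (0.0557), *Ect2* (0.0706), *Cdc6* (0.0595), *Gins1* (0.086), *Rfc3* (0.0779), *Pold1* (0.0923), *Cdc25b* (0.0686), *Espl1* (0.0682) and *Bax* (0.0619).

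The sign changed in 82 cases over 19 genes of the set, none with a call. With edgeR under TMM and RLE scaling and with DESeq2, the log2 fold changes were *Tk1* -0.22, -0.23 and -0.23, *Ccnb1* -0.25, -0.26 and -0.26, *Ccnb2* -0.38, -0.39 and -0.39, *Aurkb* -0.28, -0.30 and -0.29, *Plk1* -0.33, -0.34 and -0.33, *Cenpf* -0.34, -0.36 and -0.36, *Kif20a* -0.20, -0.20 and -0.20, *Ube2c* -0.43, -0.45 and -0.44, *Cdc20* -0.04, -0.04 and -0.04, *Mki67* -0.09, -0.11 and -0.10, *Top2a* -0.29, -0.31 and -0.30, each above 0 in limma. The count models compare means and limma compares mean logs. Upper-quartile scaling gave 0.03 for *Kif11*. When single libraries were left out, sign-changing genes ranged over *Mcm5* -0.17 to 0.02, *Pcna* -0.02 to 0.05, *Cdkn1a* -0.43 to 0.07, *Ccna2* -0.56 to 0.15, *Ccnb1* -0.07 to 0.53, *Ccnb2* -0.08 to 0.81, *Birc5* -0.49 to 0.33, *Plk1* -0.14 to 0.54, *Kif11* -0.16 to 0.44, *Kif20a* -0.17 to 0.34, *Kif23* -0.47 to 0.53, *Tpx2* -0.32 to 0.28, *Ube2c* -0.18 to 0.85, *Cdc20* -0.06 to 0.16. Values near the floor of 3 reads, as for *Bub1*, *Cenpf* and *Aurkb*, set the depth limit.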
